A study of Danio rerio with 14 samples.

Results

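The unfolded protein response is the programme by which a cell answers unfolded protein in the endoplasmic reticulum (ER). In its Ire1 arm, the sensor Ire1 splices the mRNA of *xbp1*, which then encodes an active transcription factor. In its Atf6 arm, the sensor Atf6 leaves the ER, is cleaved by Golgi proteases and enters the nucleus, and both factors induce ER chaperones and genes of ER-associated degradation. The retina leans on this machinery because photoreceptors make large amounts of membrane protein and the retinal pigment epithelium (RPE) secretes and recycles material for them. The account concerns 4 genes, chosen by their identifiers among the 19859 in the table: the regulators *xbp1* (ENSDARG00000035622) and *atf6* (ENSDARG00000012656), the ER Hsp70 chaperone *hspa5* (ENSDARG00000103846, the protein known as BiP) and *dnajc10* (ENSDARG00000074727, the protein known as ERdj5), a J-domain disulfide reductase that works with Hspa5. The study listed them among its own calls on these retinas, so their direction here is not independent evidence. Whole-gene values carry no information on the splicing of *xbp1* or the cleavage of Atf6.

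Gene expression was measured by RNAseq in dissected retinas, RPE included, of 7 *chmru848* zebrafish and 7 wildtype (wt) zebrafish at 5 dpf. *chmru848* is a mutant line of *chm*, the gene for the Rab escort protein REP1, whose loss in people causes the retinal dystrophy choroideremia. The mutation is present in every cell of the animal, not only in the retina, and the mutants were compared at an age when their retina was already degenerating. The labels name no treatment, and the 7 samples of a genotype were used as its replicates.

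The deposited values are on a log2 scale, and normalized counts were obtained from them by undoing the transformation. Estimated depth was 14.2 to 29.2 M reads in *chmru848* and 18.01 to 26.3 M reads in wt, and the lowest value of any of the 4 genes stood for about 57 estimated reads. The level of *chm* itself overlapped between genotypes (216 to 492 normalized counts in *chmru848* and 264 to 432 in wt, difference −0.22, SE 0.19, limma adjusted p = 0.358), so it does not check the labels. Levels of several cell type markers differed between genotypes. All 8 photoreceptor markers matched were lower in *chmru848* retinas, with a summed level of 65459 to 452601 normalized counts against 243073 to 1942175 in wt. All 3 RPE markers matched (*dct*, *pmela* and *rlbp1b*) were also lower, at 991 to 13259 against 5549 to 17949, and in 5 *chmru848* retinas the sum of these markers lay below every wt retina. Of the 3 Müller glia markers, *rlbp1a* and *cahz* were lower and *gfap* was higher, and the 4 leukocyte markers summed to 22.6 to 263 against 71.4 to 199. In bulk tissue, fewer cells of a type and less RNA per cell cannot be told apart. Genes without any read numbered 369 to 1983 in *chmru848* and 317 to 628 in wt, the most in *chmru848* retinas 1, 2 and 4. At 18.01 M estimated reads each, *chmru848* retina 1 had 1983 such genes and wt retina 4 had 511. What sets this number was not tested.

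All 4 genes were higher in *chmru848* retinas, but not alike. *xbp1* and *hspa5* rose by over 5-fold, *dnajc10* by about 3-fold, and *atf6* by about 2-fold with overlapping groups. Each passed limma's moderated test after Benjamini-Hochberg adjustment over 19751 genes. Of all genes tested, 43.7% passed in either direction, 19.9% were higher and 23.7% were lower, so that a call alone is common in these retinas. For *xbp1*, *hspa5* and *dnajc10* the genotypes did not overlap, with all *chmru848* retinas higher, which held for 7.57% of all genes tested (all *chmru848* retinas were lower for 7.98%). By size of the difference, *xbp1* ranked 211 among the 19751 genes, *hspa5* 226, *dnajc10* 1129 and *atf6* 2181.

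*xbp1*, the transcription factor of the Ire1 arm, ranged from 22637 to 76358 normalized counts in *chmru848* retinas with a median of 44532. In wt retinas it ranged from 4005 to 14930 with a median of 7969. The *chmru848* values fell into a lower set (retinas 2, 4 and 6, at 22637 to 25919) and a higher set (retinas 1, 3, 5 and 7, at 44532 to 76358), and wt retina 7 stood above the other wt retinas, whose highest value was 8733. The means were 43960 ± 21143 (SD, n = 7) and 7635 ± 3775, a ratio of 5.76. On the deposited log2 scale it was higher by 2.51 (SE 0.34, limma adjusted p = 1.34e-05), and the exact two-sided permutation test gave p = 0.000583, the smallest that 7 retinas against 7 allow.

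*atf6*, the sensor and transcription factor of the other arm, ranged from 630 to 2339 normalized counts in *chmru848* retinas with a median of 1478. In wt retinas it ranged from 467 to 1546 with a median of 557. All 7 *chmru848* retinas lay above the wt median, but only retinas 4 and 6 exceeded every wt retina, because wt retina 6 stood at 1546 and the other wt retinas at 467 to 648. The lowest *chmru848* values were those of retinas 5 (630) and 7 (815), which had the highest *xbp1*. These 2 libraries were also the deepest of their genotype (28.2 and 29.2 M estimated reads). Their most abundant gene took the smallest share of counts (6.25% and 5.16%), against 36.6% in retina 6, which had the most *atf6*. In wt this share was 6.55% to 13.7%, with 9.28% in retina 6. The part of depth and of this share in *atf6* and *xbp1* was not tested. The means were 1365 ± 596 (SD, n = 7) and 692 ± 382, a ratio of 1.97, and the difference was 0.94 (SE 0.29, limma adjusted p = 0.0142, exact permutation p = 0.0186). Without wt retina 6 it was 1.14 (limma adjusted p = 0.00161). When the mean RPE marker level entered the fit, an alternative added after seeing the data, the difference was 0.34 (limma adjusted p = 0.367), and with the number of genes without reads as a covariate it was 0.63 (limma adjusted p = 0.142).

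*hspa5*, the ER Hsp70 that binds unfolded chains and holds the sensors inactive, ranged from 4641 to 12106 normalized counts in *chmru848* retinas with a median of 5565. In wt retinas it ranged from 774 to 2403 with a median of 961. Retinas 2 to 6 of *chmru848* were close together at 4641 to 5585, retinas 1 (8768) and 7 (12106) were higher, and in wt it was again retina 7 that stood apart. The means were 6751 ± 2717 (SD, n = 7) and 1201 ± 565, a ratio of 5.62. The difference was 2.47 (SE 0.26, limma adjusted p = 8.05e-07, exact permutation p = 0.000583).

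*dnajc10*, the reductase partner of Hspa5, ranged from 247 to 329 normalized counts in *chmru848* retinas with a median of 297, and from 49.5 to 149 with a median of 87.6 in wt. It was the most even of the 4 genes among *chmru848* retinas, with a coefficient of variation of 10.5% against 40.3% for *hspa5*, 43.7% for *atf6* and 48.1% for *xbp1*. In wt retinas its coefficient of variation was 32.9%, with retina 3 lowest and retina 6 highest. The means were 293 ± 30.6 (SD, n = 7) and 93.9 ± 30.9, a ratio of 3.12, and the difference was 1.37 (SE 0.18, limma adjusted p = 1.2e-05, exact permutation p = 0.000583).

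**Figure D1:**
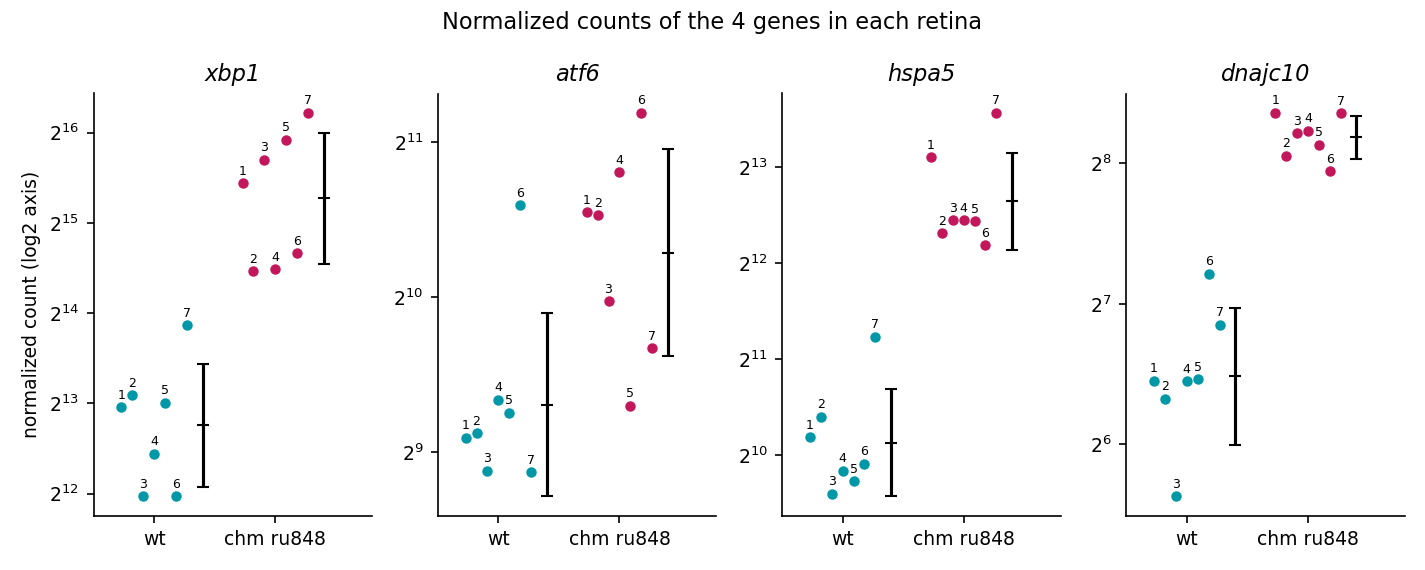
Normalized counts (log2 axis) of *xbp1*, *atf6*, *hspa5* and *dnajc10* in each retina, numbered by replicate, with wt in cyan and *chmru848* in magenta. Bars give the mean ± SD of the log2 counts (n = 7). The groups separate for *xbp1*, *hspa5* and *dnajc10*, while *atf6* overlaps, with wt retina 6 at 1546 and *chmru848* retina 5 at 630.

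Whether the regulators and chaperones rose by different amounts was tested on the per-retina difference of each of the 6 pairs, with exact permutation tests adjusted over the 6. The rise of *hspa5* exceeded that of *atf6* (*atf6* minus *hspa5* −1.53 on the log2 scale, 95% interval −2.60 to −0.44, exact permutation adjusted p = 0.0210). It also exceeded that of *dnajc10* by 1.1001 (0.57 to 1.65, exact permutation adjusted p = 0.0035). Between *xbp1* and *hspa5* the difference of the rises was 0.04, with an interval of −0.51 to 0.59 (exact permutation adjusted p = 0.886), so that a gap within that interval could not be told from 0 with 7 retinas a group. The rise of *xbp1* exceeded that of *dnajc10* by 1.14 (0.35 to 1.94, exact permutation adjusted p = 0.0210). This last call was lost on log2 normalized counts, where low values are not compressed (0.82, exact permutation adjusted p = 0.0629). On that scale the rise of *hspa5* exceeded that of *dnajc10* by a smaller 0.82 (0.25 to 1.39, exact permutation adjusted p = 0.0280). *xbp1* minus *atf6* was 1.57 (0.14 to 2.98) and did not pass after adjustment (exact permutation adjusted p = 0.0516), and *atf6* minus *dnajc10* was −0.43 (−1.10 to 0.26, exact permutation adjusted p = 0.227). On log2 normalized counts *atf6* minus *dnajc10* was −0.72 (−1.43 to 0.0061, exact permutation adjusted p = 0.0629).

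Co-variation between retinas was then examined within each genotype, and over all 14 retinas after the mean of its genotype was removed from each value. A pooled correlation would only restate the difference between genotypes. This gave 18 relations for the 6 pairs, over which p-values were adjusted. *xbp1* and *hspa5* had positive correlations. Pearson's r was 0.66 in *chmru848*, 0.84 in wt and 0.75 over the 14 group-centred retinas (Spearman's rho 0.61, 0.64 and 0.63). The group-centred r had a permutation p of 0.00266 and an adjusted p of 0.0479, and r was also 0.75 without the 2 retinas farthest from the median of *xbp1*. By rank it did not pass (permutation p = 0.0286, adjusted p = 0.129), and within a genotype neither r passed (exact permutation p = 0.126 and 0.0190, adjusted p = 0.291 and 0.0821). Without *chmru848* retina 7 r in *chmru848* was 0.40, and without wt retina 7 r in wt was 0.62. The adjusted p of the group-centred r was over 0.05 when any of 11 retinas was left out, up to 0.107 without wt retina 7, and under it only without *chmru848* retina 1, *chmru848* retina 5 or wt retina 5. In both genotypes, the retina numbered 7 had the most *xbp1* and the most *hspa5*.

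*xbp1* and *atf6* had negative correlations. Pearson's r was −0.85 in *chmru848*, −0.53 in wt and −0.71 over the 14 group-centred retinas (Spearman's rho −0.71, −0.54 and −0.63). None of these passed after adjustment (permutation p = 0.0228, 0.239 and 0.00791, adjusted p = 0.0821, 0.388 and 0.0679, exact within a genotype). Without the 2 retinas farthest from the median of *xbp1*, r was −0.92, −0.94 and −0.67. Without wt retina 6 alone, r in wt was −0.18 (exact permutation adjusted p = 0.784), and without wt retina 3 alone −0.85 (0.0821). In wt retina 3, both genes were low, and without it the group-centred r was −0.85 (permutation adjusted p = 0.0171). *atf6* and *hspa5* had r of −0.39, −0.30 and −0.34 in the same order, with permutation adjusted p of 0.442, 0.461 and 0.388, rho of −0.39, −0.29 and −0.34, and r of −0.29, 0.10 and −0.23 without the 2 retinas farthest from the median of *atf6*.

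*dnajc10* followed *hspa5* among the *chmru848* retinas. Pearson's r was 0.85 and Spearman's rho 0.93 (exact permutation p = 0.0113 and 0.00675), which did not pass after adjustment (adjusted p = 0.0679 and 0.121), and r was 0.96 without the 2 retinas farthest from the median of *hspa5*. In wt r was 0.40 (exact permutation adjusted p = 0.442), and over the 14 group-centred retinas 0.48 (permutation adjusted p = 0.291). With *xbp1*, *dnajc10* had r of 0.58, 0.19 and 0.28, and with *atf6* −0.39, 0.70 and 0.33, in *chmru848*, wt and group-centred retinas, with permutation adjusted p of 0.291 to 0.715. Without the 2 retinas farthest from the median of *xbp1*, the values of *dnajc10* with *xbp1* were 0.71, 0.77 and 0.69. Wt retina 6 was highest for both *atf6* and *dnajc10*. Their r in wt was 0.19 without that retina, 0.90 without wt retina 7, and 0.85 without the 2 retinas farthest from the median of *atf6*, and the group-centred r was −0.14 without wt retina 6.

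**Figure D2:**
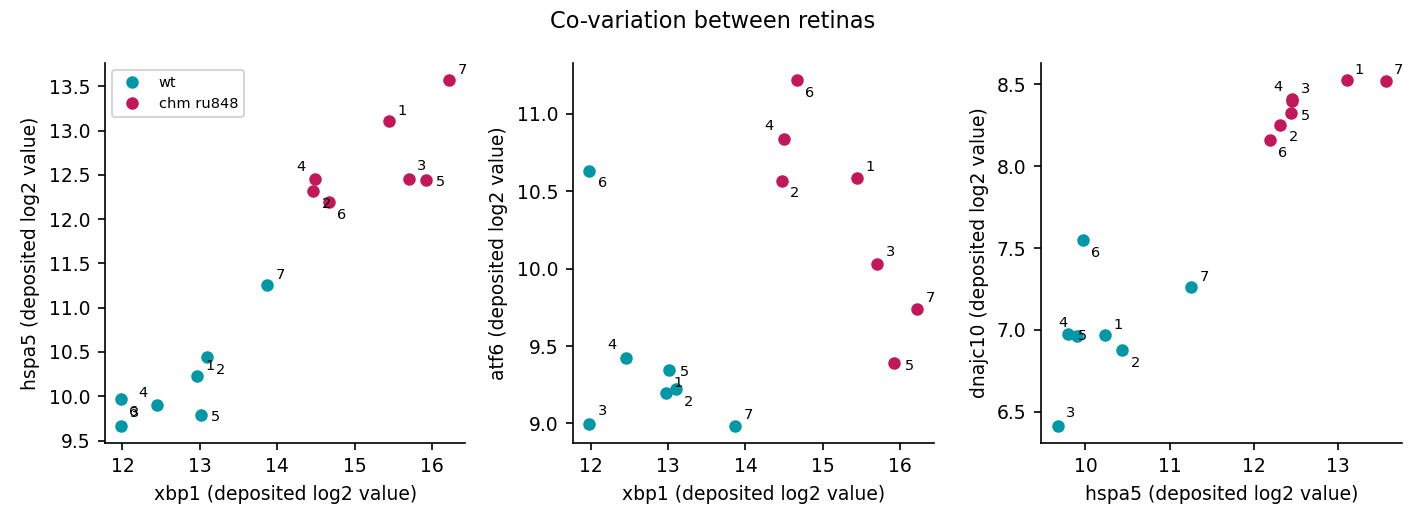
Deposited log2 values of *hspa5* against *xbp1*, *atf6* against *xbp1*, and *dnajc10* against *hspa5*, 1 point per retina numbered by replicate, wt in cyan and *chmru848* in magenta. Within each genotype *hspa5* is higher where *xbp1* is higher (r 0.66 in *chmru848* and 0.84 in wt), and *atf6* is lower (r −0.85 and −0.53), but no relation within a genotype passed after adjustment, and r of *xbp1* with *atf6* in wt was −0.18 without retina 6.

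The relation to cell type markers was examined after seeing the data, in 36 relations of the 4 genes with RPE markers, photoreceptor markers and genes without reads. *xbp1* was higher where RPE markers were higher, with r of 0.87 in *chmru848*, 0.82 in wt and 0.79 group-centred (rho 0.86 in each). Within a genotype these did not pass (exact permutation adjusted p = 0.127 and 0.157). The group-centred relation passed over the 36 (permutation p = 0.00039, adjusted p = 0.0140) and had r of 0.72 without the 2 retinas farthest from the median of the marker level. Without such 2 retinas r was 0.73 in *chmru848* and 0.48 in wt. *chmru848* retinas 5 and 7 held the most RPE marker signal of their genotype and the most *xbp1*. With photoreceptor markers, *xbp1* had a group-centred r of 0.75 (permutation adjusted p = 0.0718) and rho of 0.88 (permutation adjusted p = 0.0103). In wt its rho with them was 0.96 (exact permutation adjusted p = 0.0333). The photoreceptor marker level was not regressed out. *atf6* had a group-centred r of −0.66 with RPE markers (rho −0.63, permutation p = 0.0141, adjusted p = 0.127), and its r in wt was −0.69, or 0.16 without the 2 retinas farthest from the median of the marker level. For *hspa5* r was 0.47 (rho 0.25, permutation adjusted p = 0.258), and for *dnajc10* 0.02 (rho −0.04, permutation adjusted p = 0.945). After the RPE marker level was regressed out, the group-centred r of *xbp1* with *hspa5* was 0.69 (permutation adjusted p = 0.0621) and that of *xbp1* with *atf6* −0.40 (permutation adjusted p = 0.221). These 2 p-values were adjusted over group-centred relations alone, and cannot be set beside those adjusted over the 18 relations. With the marker level as a covariate the difference in *xbp1* between genotypes was 3.33. Because the marker level itself differed between genotypes, such a fit cannot separate it from genotype, for this or any other gene. The part of RPE content in the co-variation was not tested beyond these values.

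**Figure D3:**
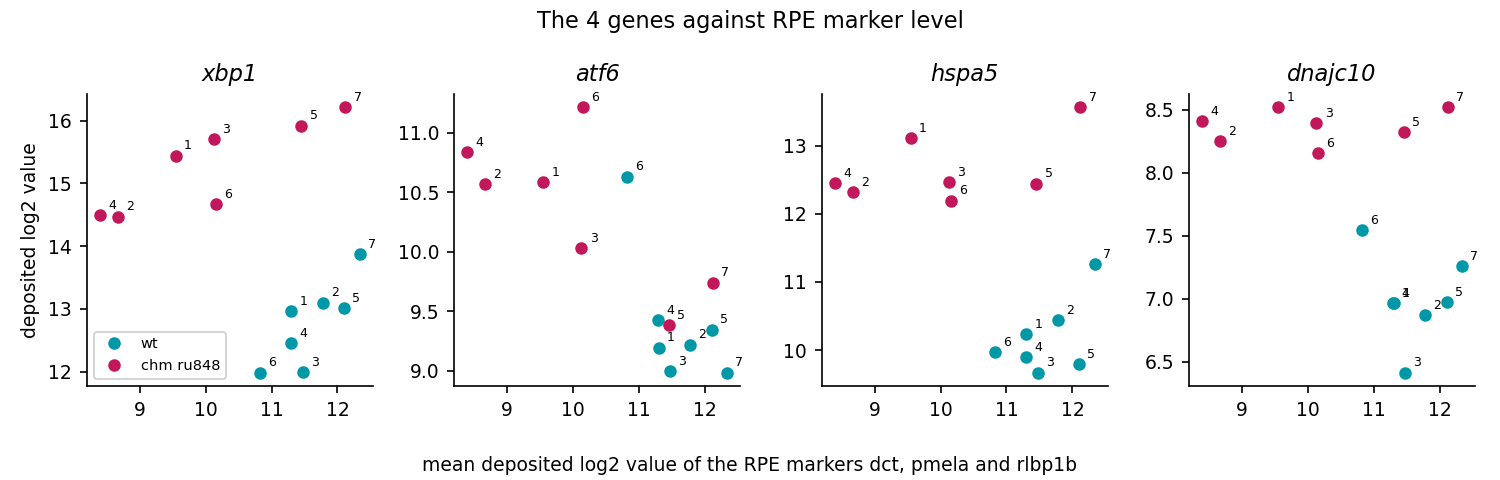
Deposited log2 value of each of the 4 genes against the mean deposited log2 value of the RPE markers *dct*, *pmela* and *rlbp1b*, 1 point per retina numbered by replicate, wt in cyan and *chmru848* in magenta. *xbp1* is higher where the markers are higher (r 0.87 in *chmru848* and 0.82 in wt, group-centred r 0.79, which passed after adjustment), and *dnajc10* shows no slope (group-centred r 0.02). For *xbp1* in wt, r was 0.48 without the 2 retinas farthest from the median of the marker level.

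The genes most like each of the 4 over the 14 group-centred retinas were ranked by Pearson's r among all genes with a symbol. For *xbp1* these were *NDUFV1* (0.94), *AP1S1* (0.94) and *ATP5MC3* (0.93), for *atf6* zgc:112982 (0.94), *atp1a3a* (0.93) and *SMAP1* (0.93), for *hspa5* ENSDARG00000045914 (0.90), *rhoaa* (0.90) and *rtn4a* (0.89), and for *dnajc10* *triap1* (0.90), *HSPA4* (0.84) and *DDX5* (0.83). No ER chaperone was among them. Among all 19750 other genes, *xbp1* was the 175th nearest to *hspa5*, and *hspa5* the 732nd nearest to *xbp1*. *atf6* was 19109th for *xbp1*, close to the far end of the order.

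The rest of the pathway was taken from 4 lists of ER genes by role, 63 genes in all, of which 60 were matched to an identifier and 59 were tested. Of the 59, 34 were higher (57.6%, against 19.9% of all genes tested), 3 were lower and 22 did not pass, with a median difference of 0.72 against −0.06 for all genes. Without the 4 genes described above, 30 of 55 were higher. In 16 of the 59, or 13 of the 55, every *chmru848* retina lay above every wt retina, which held for 7.57% of all genes tested. Without wt retina 6 and *chmru848* retinas 1, 2 and 4, a set chosen after seeing the data, 32 were higher and 2 were lower. The share depends on where a gene came from. Of the 26 other genes that the study's supplementary tables hold, which were called on these retinas and are not independent, 24 were higher. Of the 29 other genes outside those tables, 6 were higher (20.7%), 2 were lower and the median difference was 0.22. Because those tables hold the study's calls, the genes outside them are in part those that were not called. Their low share was thus partly set beforehand, here and in each list below, and is not a test against 19.9%. The genotypes separated, with every *chmru848* retina higher, in 11 of the 26 but in only 2 of the 29. Of the PERK arm, all 7 listed genes were higher with a median difference of 2.08, but 6 of the 7, all but *atf4b*, come from the study's tables of calls on these retinas. They were led by *ddit3* (2.59), *ppp1r15a* (2.26) and *atf4b* (2.25), with *chac1* (0.91) the smallest.

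Among the sensors and the proteins that process them, 5 of 9 were higher, 1 was lower and 3 did not pass. All 5 that were higher are in the study's tables of its own calls, and of the 4 outside them 0 were higher and 1 was lower, with a median difference of −0.38, where 19.9% of all genes were higher. These 4 are in part left over for not having been called. *eif2ak3*, the gene for the sensor PERK, was higher by 2.001 (SE 0.30, limma adjusted p = 3.96e-05). The 2 zebrafish genes for Ire1 went in opposite directions. *ern2* was higher by 1.25 (SE 0.26, limma adjusted p = 0.000865), with 344 ± 157 normalized counts (SD, n = 7) in *chmru848* and 115 ± 37.5 in wt. *ern1* was lower by a difference of −1.46 (SE 0.58, limma adjusted p = 0.0499), with 265 ± 164 normalized counts in *chmru848* and a range of 115 to 2863 in wt. The call on *ern1* was lost when any of 10 retinas was left out (*chmru848* retinas 2 to 7 and wt retinas 1, 2, 4 and 5), with limma adjusted p of 0.00981 to 0.113 over all leave-outs, and under 7 of the other settings tried. Of the proteases that cleave Atf6, *mbtps2* was higher by 0.63 (SE 0.17, limma adjusted p = 0.00496) and *mbtps1* had a difference of −0.39 (SE 0.18, limma adjusted p = 0.0935), which passed without *chmru848* retina 1 (−0.50, limma adjusted p = 0.0230). The related ER-bound factors *creb3l1* and *creb3l2* had differences of 0.30 and −0.38 that did not pass (limma adjusted p = 0.348 and 0.132).

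Of the ER Hsp70 and Hsp90 system, 11 of 14 genes were higher, none was lower and 3 did not pass, with a median difference of 1.06. Outside the study's tables, 4 of 7 were higher (57.1%, against 19.9% of all genes tested), with a median of 0.76. *hyou1*, the large ER Hsp70 that exchanges nucleotide on Hspa5, had the largest difference of any ER gene listed, 2.56 (SE 0.20, limma adjusted p = 2.75e-08), with 1178 ± 234 normalized counts (SD, n = 7) against 173 ± 59.6. *sil1*, the other exchange factor of Hspa5, was higher by 1.74 (SE 0.22, limma adjusted p = 7.44e-06). *manf*, a secreted ER stress protein that binds Hspa5, was higher by 1.71 (SE 0.34, limma adjusted p = 0.000612) with overlapping groups. *hsp90b1*, the ER Hsp90, was higher by 1.19, and the J-domain genes *sec63*, *dnajc3a* and *dnajc3b* by 0.99, 0.92 and 0.76. *dnajb9b* was called at 0.79 (limma adjusted p = 0.0494), but not when any of 11 retinas was left out (all but *chmru848* retinas 1 and 4 and wt retina 2, adjusted p up to 0.104). Its call was also lost on log2 normalized counts with pseudocounts of 0.5 and 5 (limma adjusted p = 0.115 and 0.0696). The 3 that did not pass were *dnajb11* (0.27, SE 0.28), *dnajc1* (0.03, SE 0.16) and *sdf2l1* (−0.21, SE 0.28), with limma adjusted p of 0.467, 0.884 and 0.562. *dnajb11* passed with the RPE marker covariate (0.89, limma adjusted p = 0.0152) and with genes without reads as a covariate (0.79, limma adjusted p = 0.0268). *dnajb11* and *sdf2l1*, which were singled out after their values were seen, encode the J-domain partner ERdj3 and a protein bound to it.

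Of the disulfide isomerases and lectin chaperones, 8 of 16 were higher, 1 was lower and 7 did not pass. Outside the study's tables, where genes are in part left over for not having been called, 2 of 8 were higher (25%, against 19.9% of all genes tested). Their median was 0.39. The collagen chaperone *serpinh1b* was higher by 1.35 (SE 0.41, limma adjusted p = 0.0124) and the isomerase *pdia3* by 1.32 (SE 0.24, limma adjusted p = 0.000293). *agr2*, an isomerase of secretory cells, had a difference of 1.20 (SE 0.49) that did not pass (limma adjusted p = 0.0538), and *pdia5* had the smallest, 0.17. *agr2* was called under 7 of 27 alternatives, among them without *chmru848* retina 1 (1.41, limma adjusted p = 0.0279) or 3 (1.48, 0.0163), and was 0.75 to 1.48 with each retina left out. *ero1a*, the oxidase that recharges the isomerases, was lower, with a difference of −0.92 (SE 0.25, limma adjusted p = 0.00714) at 9.33 ± 6.498 normalized counts in *chmru848* against 39.3 ± 23.3 in wt. Its call was lost with genes without reads as a covariate (−0.74, limma adjusted p = 0.0611) and over 10 retinas (−0.73, limma adjusted p = 0.0501). The lectin chaperones *calr* (0.50) and *calr3b* (0.82) were called near the threshold (limma adjusted p = 0.0416 and 0.0437), and *canx* had a difference of 0.30 that did not pass (0.181). The calls on *calr* and *calr3b* were lost when single retinas were left out, 9 of 14 for *calr* (up to 0.0919 without wt retina 4) and 10 of 14 for *calr3b* (up to 0.0948 without wt retina 4).

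Of ER-associated degradation and other ER stress proteins, 10 of 20 were higher, 1 was lower and 9 did not pass, with a median difference of 0.35. All 10 that were higher are in the study's tables, and of the 10 outside them 0 were higher and 1 was lower, with a median of −0.02, where 19.9% of all genes were higher. The 10 outside are in part left over for not having been called. *serp1*, which shields nascent membrane proteins, was higher by 1.71 (SE 0.26, limma adjusted p = 5.22e-05), *ankzf1*, which acts on stalled ribosomes, by 1.66 (SE 0.26, limma adjusted p = 6.12e-05), and *vcp*, the ATPase that extracts proteins from the ER membrane, by 1.31 (SE 0.19, limma adjusted p = 2.22e-05). The channel gene *derl1* was higher by 1.22 and *ubxn4* had the smallest difference, 0.00 (SE 0.19). The core ligase *syvn1* and its partner *sel1l* had differences of 0.13 (SE 0.15) and −0.14 (SE 0.15), the mannosidase-like genes *edem1*, *edem2* and *edem3* −0.27, 0.23 and 0.22, and *herpud1* −0.03 (SE 0.24, limma adjusted p = 0.924). *os9*, a lectin that hands misfolded glycoproteins to that ligase, was lower, with a difference of −0.96 (SE 0.21, limma adjusted p = 0.00124). The genes of the ligase complex were named after their values were seen. On simulated data, where only sets of 50 among 19751 genes were shifted, shifts of 1 were called for 37 of 50 genes (74%). Shifts of 0.5 were called for 11 of 50 (22%). In the retinas 43.7% of all genes passed, so that the Benjamini-Hochberg adjustment was less strict than in the simulation. The simulation also gave both genotypes the spread of wt retinas, which makes a call easier than the larger spread in *chmru848*. On the deposited scale the SD was 0.22 in *chmru848* against 0.13 in wt for *syvn1*, 0.23 against 0.11 for *sel1l* and 0.60 against 0.26 for *herpud1*. The simulated shares are therefore not the chance of a call for the genes of the ligase complex. Small changes in these genes could still be missed.

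**Figure D4:**
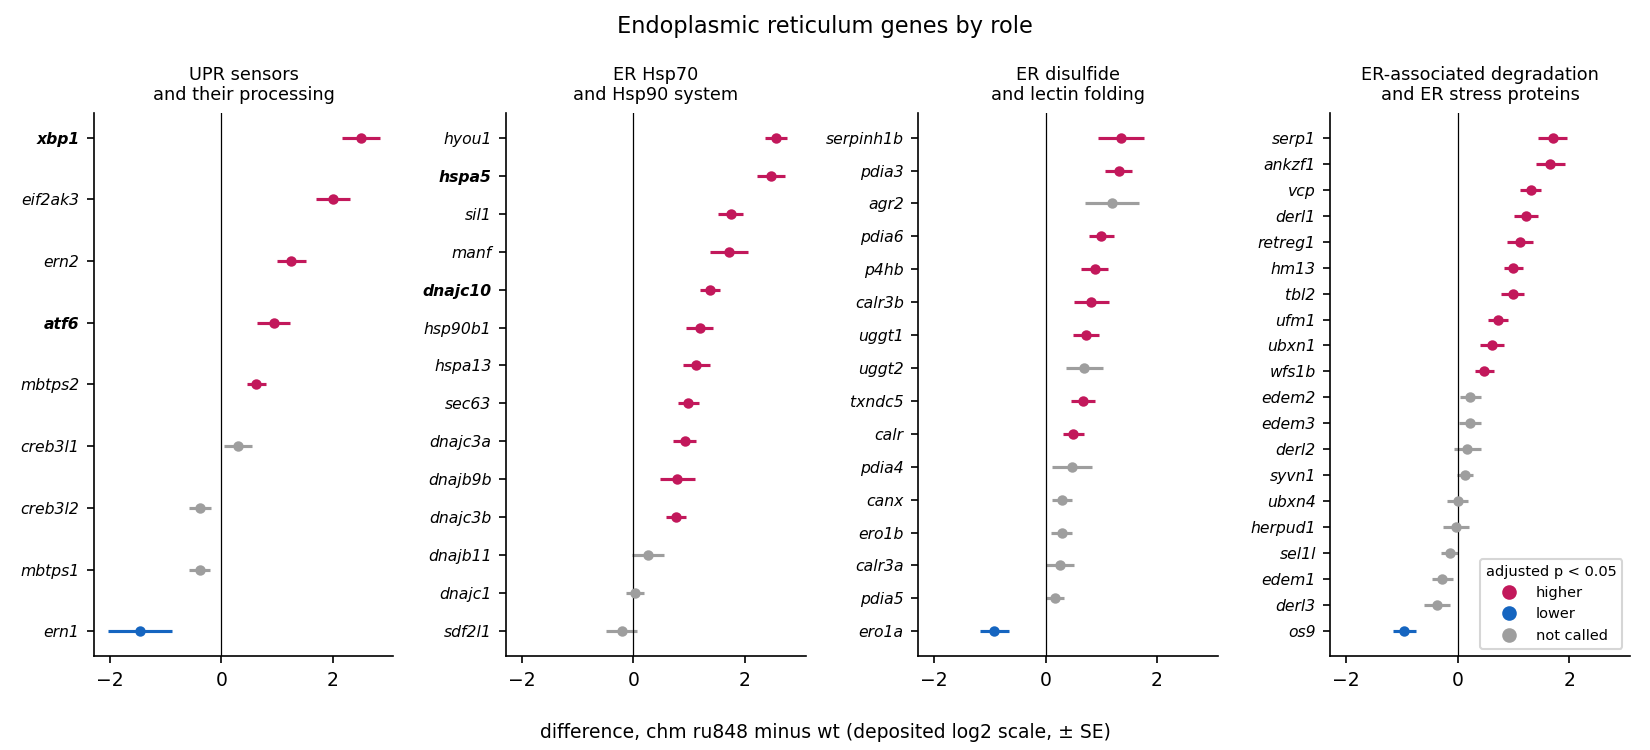
Difference between *chmru848* and wt (deposited log2 scale) with its SE from limma for the 59 tested ER genes, by list. Magenta marks adjusted p under 0.05 and higher, blue lower, grey not called, and the 4 genes described above are in bold. *hyou1*, *xbp1* and *hspa5* lie farthest right (2.56, 2.51 and 2.47), and most degradation genes below *wfs1b* lie near 0.

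The co-variation of the other ER genes with each regulator was also described. Because *xbp1* and *atf6* had a group-centred r of −0.71 with each other over the same retinas, the values with *xbp1* and with *atf6* are not independent. Over the 14 group-centred retinas, 25 of the other 58 ER genes had r above 0.5 with *xbp1* (43.1%, against 16.3% of all genes), and the median r was 0.39 against 0.02 for all genes. This was not particular to the regulator. With *hspa5* it was also 25 of 58 (43.1%, against 9.21% of all genes), with a median r of 0.42 against −0.02. With *dnajc10* it was 10 of 58 (17.2%, against 4.40%), with a median r of 0.16. With *atf6*, 4 of 58 had r above 0.5 (6.90%, against 15.8% of all genes) and 13 had r below −0.5 (22.4%, against 18.02%), with a median of −0.24. In both genotypes separately, 34 of 58 had a positive r with *xbp1* (58.6%, against 31.0% of all genes). The genes share the same 14 libraries, so these counts are a description. Of the Hsp70 and Hsp90 list, 8 of 14 were above 0.5 with *xbp1*, among them *manf* (0.74), *sdf2l1* (0.73) and *hsp90b1* (0.73). *herpud1* (0.69) and *pdia4* (0.74) were also above 0.5. *pdia4* had a difference between genotypes of 0.47 that did not pass (limma adjusted p = 0.289) and was 0.21 to 0.75 with each retina left out, passing without *chmru848* retina 4 (limma adjusted p = 0.0499). With the RPE marker covariate it was 1.48 (limma adjusted p = 0.000135). The genes with r above 0.5 with *atf6* were *sec63* (0.70), *wfs1b* (0.58), *eif2ak3* (0.58) and *ankzf1* (0.54). Their r with *xbp1* was −0.25, −0.70, −0.56 and −0.44, a sign that the opposite variation of the 2 regulators makes likely beforehand. RPE markers moved with *xbp1* in the same direction as these ER genes, and their part was not tested here.

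**Figure D5:**
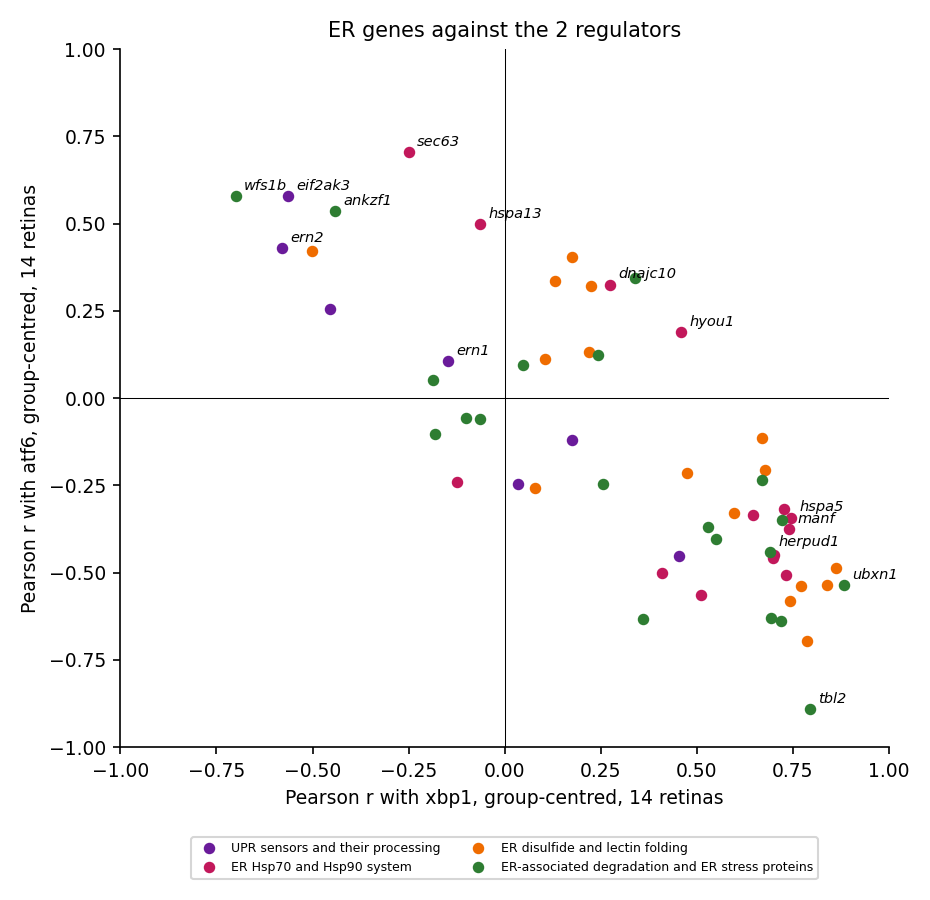
Pearson's r of each ER gene with *xbp1* (horizontal) and with *atf6* (vertical) over the 14 group-centred retinas, coloured by list. Most chaperones and isomerases lie at lower right, positive with *xbp1* and negative with *atf6*, and *sec63*, *wfs1b*, *eif2ak3* and *ankzf1* lie at upper left.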

How the data were processed

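Per the labels and the study's methods, the SMART-Seq v4 kit served to make libraries from 7 zebrafish a genotype. The authors trimmed reads with Trim Galore 0.6.7, mapped them to GRCz11 with STAR 2.7.10a, obtained gene counts with RSEM 1.3.3 and normalised with DESeq2 1.38.3. The deposited table holds 1 log2 value per gene and retina, a variance-stabilizing transformation by the authors. A count of 0 is written as 4.35, and this value was used to undo the transformation. The result matched the listed base means of 249 genes within a relative difference of 1.63e-14. Because RSEM divides shared reads, reads were not recovered and no count test was run. Among low values, 51.8% to 64.4% per retina lay on a step taken as 1 read, from which depth was estimated.

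Differences were tested with limma 3.58.1 (R 4.3.3, moderated test with trend, two-sided, Benjamini-Hochberg over the 19751 genes with reads in 7 or more of the 14 retinas), leaving out 108 genes. Exact permutation tests used all 3432 arrangements of the retinas or all 5040 pairings, and group-centred correlations 100000 permutations within genotype (numpy 2.4.6). With a replicate block, differences between rises were instead tested by flipping the sign of the difference within same-numbered retinas, over all sign patterns. P-values measure the spread between these samples. Symbols were paired with identifiers by the study's supplementary tables where these list them, as for 30 of the 60 matched ER genes. Otherwise they came from a gene name table that named 18974 identifiers, by exact symbol or, failing that, with case ignored. Unmatched were *atf6b*, *dnajb9a* and *calra*, and *pdia2* was too low to be tested. Where 2 copies of a gene exist, RSEM could split reads between them. The members, gene lists and tests were chosen with earlier results of these data known. Values were given for the 4 genes, all sensors, and the 3 largest and the smallest difference in each list, and other genes were added after their values were seen. Among the markers, *rho* matched several identifiers, and *opn1sw1*, *rpe65a*, *tyrp1b*, *glula*, *mpeg1.1* and *mpx* matched none. All of these were left out. The RPE marker level thus rests on 3 of the 5 genes listed for it, without *rpe65a*.

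Alternatives were other gene filters, pseudocounts of 0.5 and 5, no trend, quantile normalization, median centring, robust moderation, weights per sample, a replicate block, the number of genes without reads as a covariate, and each retina left out. The RPE marker covariate, the marker correlations and the fit on 10 retinas were added after seeing the data. Scripts were tested on simulated data. No sequences or coordinates were used.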

Additional observations from a re-analysis of the deposited data

Results flagged for a closer look

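In wt retinas, *atf6* stood at 1546 normalized counts in retina 6, farther from the other 6 (467 to 648) than Dixon's criterion for 7 values allows, and *hspa5* stood at 2403 in retina 7, against 774 to 1348 in the other 6. Wt retina 6 also had the lowest photoreceptor marker sum of its genotype, 243073 normalized counts, and the lowest RPE marker sum, 5549, and wt retina 7 the highest RPE marker sum, 17949. Their part in these values was not tested. In all 14 groups of values were examined in this way, and 2 stood out. For normally distributed values, chance alone marks about 5% of groups. Both flags were raised on normalized counts and not on log2 values, so that rate need not hold for them.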

How the results depend on the processing

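The differences in *xbp1*, *hspa5* and *dnajc10* kept their direction and their call under every alternative run (2.35 to 3.33, 2.32 to 2.83 and 1.27 to 1.70). That in *atf6* was 0.63 (limma adjusted p = 0.142) with genes without reads as a covariate and 0.34 (0.367) with the RPE marker covariate, added after seeing the data, and passed otherwise. Over all genes 3132 to 4521 were higher and 3371 to 5401 lower, and 29 to 36 ER genes were higher, and 1 ER gene was lower among genes with a mean at least 2 above the lowest value, against 3. Median centring turned the split of 3940 higher and 4687 lower genes to 4389 and 4281.

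The group-centred r of *xbp1* and *atf6* was −0.66 (permutation adjusted p = 0.0307) with genes without reads regressed out, against −0.71 in the main run. With each retina left out it was −0.85 to −0.67. The group-centred r of *xbp1* and *hspa5* was 0.74 (0.0562) after median centring, 0.69 (0.0621) with RPE markers regressed out and 0.65 to 0.82 with each retina left out. Where a level was regressed out, only group-centred relations were run, and p-values were adjusted over these alone. Such adjusted p-values cannot be set beside those over the 18 relations, so 0.0307 does not show a stronger relation. Leaving out single retinas turned the sign of r for *xbp1* and *dnajc10* in wt (−0.32 to 0.88), and for *atf6* and *dnajc10* in *chmru848* (−0.66 to 0.0311) and group-centred (−0.14 to 0.51). It also turned the rise of *xbp1* minus that of *hspa5* (−0.11 to 0.14), and gave 1.23 to 1.82 for *xbp1* minus *atf6*. On log2 normalized counts *xbp1* minus *dnajc10* was 0.82 (exact permutation adjusted p = 0.0629).

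Labels number the retinas 1 to 7 in each genotype without naming a pairing. Same-numbered retinas had correlations of −0.16 to 0.12 in their deviations, 3 of 7 over 0.1, and 0 of 7 *chmru848* retinas correlated best with its own number, so the numbers were not taken to pair samples. With a replicate block 4036 genes were higher and 4791 lower. The exact sign-flip test over same-numbered retinas gave an adjusted p of 0.0234 both for *xbp1* minus *atf6* (1.57) and for *atf6* minus *dnajc10* (−0.43).

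Of the differences of single genes named or listed, some that did not pass turned sign. *creb3l1* was −0.11 with the RPE covariate. *dnajc1* was −0.0273 with sample weights, −0.0212 after quantile normalization and −0.0563 to 0.0881 with each retina left out. *sdf2l1* was 0.23 with genes without reads as a covariate, 0.48 with the RPE covariate and 0.20 over 10 retinas. *herpud1* was 0.0308 after median centring, 0.15 with genes without reads as a covariate, 0.44 with the RPE covariate, 0.15 over 10 retinas and −0.17 to 0.13 with each retina left out. *ubxn4* was −0.0563 and −0.0224 with pseudocounts of 0.5 and 5, −0.12 with sample weights, −0.15 with genes without reads as a covariate, −0.0520 with the RPE covariate, −0.16 over 10 retinas and −0.0773 to 0.0807 with each retina left out. In all, over 69 single genes, 1712 values kept direction and side of the threshold, 92 lost and 24 gained a call, and 27 turned sign. Low genes such as *ero1a* are limited by counting, and their differences are compressed on the deposited scale. No cause was tested.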

Other observations

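Chaperones outside the ER were also examined. Of 7 cytosolic and mitochondrial chaperone genes tested, 6 were higher in *chmru848* retinas and none was lower, with a median difference of 1.605, where 19.9% of all genes were higher. The study's tables of its own calls on these retinas hold 5 of the 7, and of the 2 outside them 1 was higher. The call on *hsp90ab1* (0.57, limma adjusted p = 0.0457) was lost under 16 of 27 alternatives, with limma adjusted p up to 0.225. The mitochondrial co-chaperone *hspe1* was higher by 1.999 (SE 0.32, limma adjusted p = 8.31e-05), its partner *hspd1* by 1.96 (SE 0.26, limma adjusted p = 9.32e-06) and the mitochondrial Hsp70 *hspa9* by 1.91 (SE 0.19, limma adjusted p = 5.91e-07). The chaperonin subunit *cct3* was higher by 1.605 (SE 0.19, limma adjusted p = 2.86e-06), and *hsp90aa1.1* had the smallest difference, 0.45, which did not pass (SE 0.19, limma adjusted p = 0.0667) but did without *chmru848* retina 3 (0.54, limma adjusted p = 0.0314). Between retinas, 3 of the 7 had a group-centred r above 0.5 with *dnajc10* and 3 of the 7 with *xbp1*. For all genes tested the shares were 4.40% and 16.3%. *hspa9* and *hspd1* each had r of 0.75 with *dnajc10*, and −0.03 and 0.31 with *xbp1*. Other genes of the list went the other way, with *hspa14* at 0.14 with *dnajc10* and 0.71 with *xbp1*, and *cct3* at 0.21 and 0.65. *hspe1* had 0.50 and 0.59.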
